A study of Rattus norvegicus with 22 samples.

Results

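The adaptors that carry substrates to cullin ubiquitin ligases were measured in 2 classes of male germ cells of the rat. Of the 47 that could be tested, 40 differed between pachytene spermatocytes and round spermatids of saline rats. So did 16458 of all 21758 probes tested, so a difference between these cell types was common on the array. The set held every gene on the array with a symbol that begins with Klhl, Kbtbd, Klhdc or Asb followed by a digit. It had 55 genes of the 15154 genes with a symbol, namely 27 Klhl, 4 Kbtbd, 7 Klhdc and 17 Asb genes. Membership rests on gene names and used no measured value, and a gene with several probes is represented by whichever probe was brightest on average over the 22 arrays. The other symbols of these families in the gene table, such as Klhl2, Klhl3, Klhl13 and Asb15, had no probe under this rule and were not analysed here.

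Male rats were gavaged with saline or with cyclophosphamide, a DNA-alkylating chemotherapy agent. The dose was 6 mg/kg, given 6 days a week over 4 weeks. The cells were pachytene spermatocytes (in the prophase of meiosis) and haploid round spermatids, and they were separated by sedimentation at unit gravity. There were 4 groups: pachytene spermatocytes after saline (n = 5) or cyclophosphamide (n = 5), and round spermatids after saline (n = 6) or cyclophosphamide (n = 6). The labels give no strain, age or genotype, and do not say whether equal rat numbers in the 2 cell types mark the same animal. Among the cyclophosphamide pachytene arrays, rat number 16 appears once with the year 2011 and once with 2012 (16-2011 and 16-2012 here).

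A cullin ligase joins ubiquitin to proteins that a separate adaptor has bound. Klhl and Kbtbd proteins bind Cul3 through a BTB domain and hold the substrate with kelch repeats. Asb proteins bind elongin B and elongin C through a SOCS box, work mostly with Cul5, and reach the substrate with ankyrin repeats. Klhdc proteins have kelch repeats without a BTB domain, and several of them read the C-terminal ends of proteins for Cul2 or Cul5. Klhl10 is the member best known in the testis, where it is an adaptor of Cul3 in spermatids and is needed for male fertility in mice.

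The starts of 4 genes that were among the members higher in round spermatids are shown because they share a short motif of the MYB type. Each sequence runs from 250 bases before to 50 bases after the start of the RefSeq gene in build GRCr8, on the strand of the gene. They lie at chr10:85876554-85876853 on the plus strand for Klhl10, chr2:245435577-245435876 on the plus strand for Asb17, chr3:74841868-74842167 on the plus strand for Klhl41 and chrX:62989189-62989488 on the plus strand for Klhl15. Capitals mark CAGTTG, or CAACTG where the motif is on the other strand.
Klhl10: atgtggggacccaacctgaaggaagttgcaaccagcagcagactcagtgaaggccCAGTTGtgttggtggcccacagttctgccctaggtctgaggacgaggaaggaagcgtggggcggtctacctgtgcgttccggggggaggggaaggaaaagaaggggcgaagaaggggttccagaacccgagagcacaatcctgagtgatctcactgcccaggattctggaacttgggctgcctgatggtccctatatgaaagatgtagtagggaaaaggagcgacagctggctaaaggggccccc
Asb17: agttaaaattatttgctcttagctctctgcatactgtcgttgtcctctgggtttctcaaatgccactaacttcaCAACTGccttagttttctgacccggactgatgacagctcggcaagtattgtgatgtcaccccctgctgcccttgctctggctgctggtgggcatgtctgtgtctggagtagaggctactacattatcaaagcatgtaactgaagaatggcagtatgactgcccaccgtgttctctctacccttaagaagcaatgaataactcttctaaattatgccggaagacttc
Klhl41: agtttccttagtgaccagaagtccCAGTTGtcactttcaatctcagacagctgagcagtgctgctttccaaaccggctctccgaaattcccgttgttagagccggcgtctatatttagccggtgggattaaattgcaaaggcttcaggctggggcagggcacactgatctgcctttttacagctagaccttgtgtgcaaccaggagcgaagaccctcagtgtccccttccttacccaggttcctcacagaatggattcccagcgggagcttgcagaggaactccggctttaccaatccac
Klhl15: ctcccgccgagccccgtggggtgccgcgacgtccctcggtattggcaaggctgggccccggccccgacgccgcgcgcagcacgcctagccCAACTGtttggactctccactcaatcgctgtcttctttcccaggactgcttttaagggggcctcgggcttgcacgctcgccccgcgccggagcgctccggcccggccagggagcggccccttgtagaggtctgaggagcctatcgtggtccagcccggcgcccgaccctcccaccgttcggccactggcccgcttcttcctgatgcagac
With the start site as 0, the first base of the motif was at -195 in Klhl10, -176 in Asb17, -226 in Klhl41 and -160 in Klhl15. RefSeq promoters of this length were found for 49 member genes. The motif was in 6 of 22 members higher in round spermatids (the 4 above, Asb5 and Asb8), in 3 of 14 lower members (Klhl20, Klhl7 and Klhl21, the last counted by 1 of 2 probes that disagree), in 0 of 6 that did not pass, in 2 of 7 untested members (Klhl31 and Klhl40) and in 13.87% of 33469 promoters of the rat. The cyclic AMP response element TGACGTCA was in 0 of the 49 and in 1.829% of all promoters. The RFX motif GTTGCC, which can overlap CAGTTG at shared bases, was in 3 of the 22 and 2 of the 14, against 12.21% of all. The E-box CACGTG was in 4 of the 22 (Asb13, Asb2, Klhdc3 and Klhl28) and 1 of the 14 (Klhl22), against 6.418%. All motifs were searched on both strands, and a match describes letters, not a bound site.

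Levels are given as the log2 of the processed array signal minus the log2 of the 75th percentile of that array, so 0 is the level of a fairly bright probe. A probe has its own response to RNA, and levels of different genes are not compared. The 75th percentile ranged from 1069.5 to 2423.3 intensity units, the share of probes well above background was 65.3% to 76.4%, and 0 spots were saturated. The cell type labels were checked with marker lists. Of 17 round spermatid markers tested, 14 were higher in round spermatids and 1 was lower, and of 18 pachytene markers 12 were lower there and 3 were higher. Other cell types moved with the cell fraction as well: 9 of 10 macrophage and leukocyte markers and 7 of 7 peritubular myoid markers were higher in round spermatids, and 12 of 14 Sertoli cell markers and 8 of 8 Leydig cell markers were higher in pachytene spermatocytes. The log2 of the summed Sertoli marker signal was 5.18 to 5.77 on saline pachytene arrays and 2.43 to 3.60 on saline round spermatid arrays. Slides 1 and 2, read on scan day 1, held arrays of all 4 groups, and slides 3 and 4 held pachytene arrays alone. In bulk RNA, more cells of a type and more RNA per cell cannot be told apart.

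In saline rats 26 of the 47 tested members were higher in round spermatids, 14 were lower, and 7 did not pass (limma, adjusted p under 0.05 over all 21758 probes tested). Over all probes tested, 38% were higher and 37.6% were lower, so the share of members higher (55.32%) was above, and the share lower (29.79%) below, that background. The median difference was 0.61 for the members and 0.00 for all probes on the log2 scale. The families differed in their balance. Of 25 Klhl and Kbtbd genes 9 were higher and 11 lower (median -0.34). Of 16 Asb genes 12 were higher and 2 lower (median 1.23), and of 6 Klhdc genes 5 were higher and 1 lower (median 1.14). The difference between families was not tested. Among the 16 arrays of scan day 1 alone 25 members were higher and 13 lower, against 34.6% and 34.2% of all probes. In 33 of the 47 members the saline arrays of the 2 cell types did not overlap, against 57.6% of all probes. More than 2-fold differences were found for 21 higher (44.7%) and 8 lower (17%) members, against 25.3% and 21.2% of all probes. Klhl21 is counted as lower by its brighter probe, and its other probe was higher. Without Klhl21, 26 of 46 members were higher and 13 lower (median 0.67), 7 of the lower by more than 2-fold, and 9 of 24 Klhl and Kbtbd genes were higher and 10 lower (median -0.20).

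**Figure D1:**
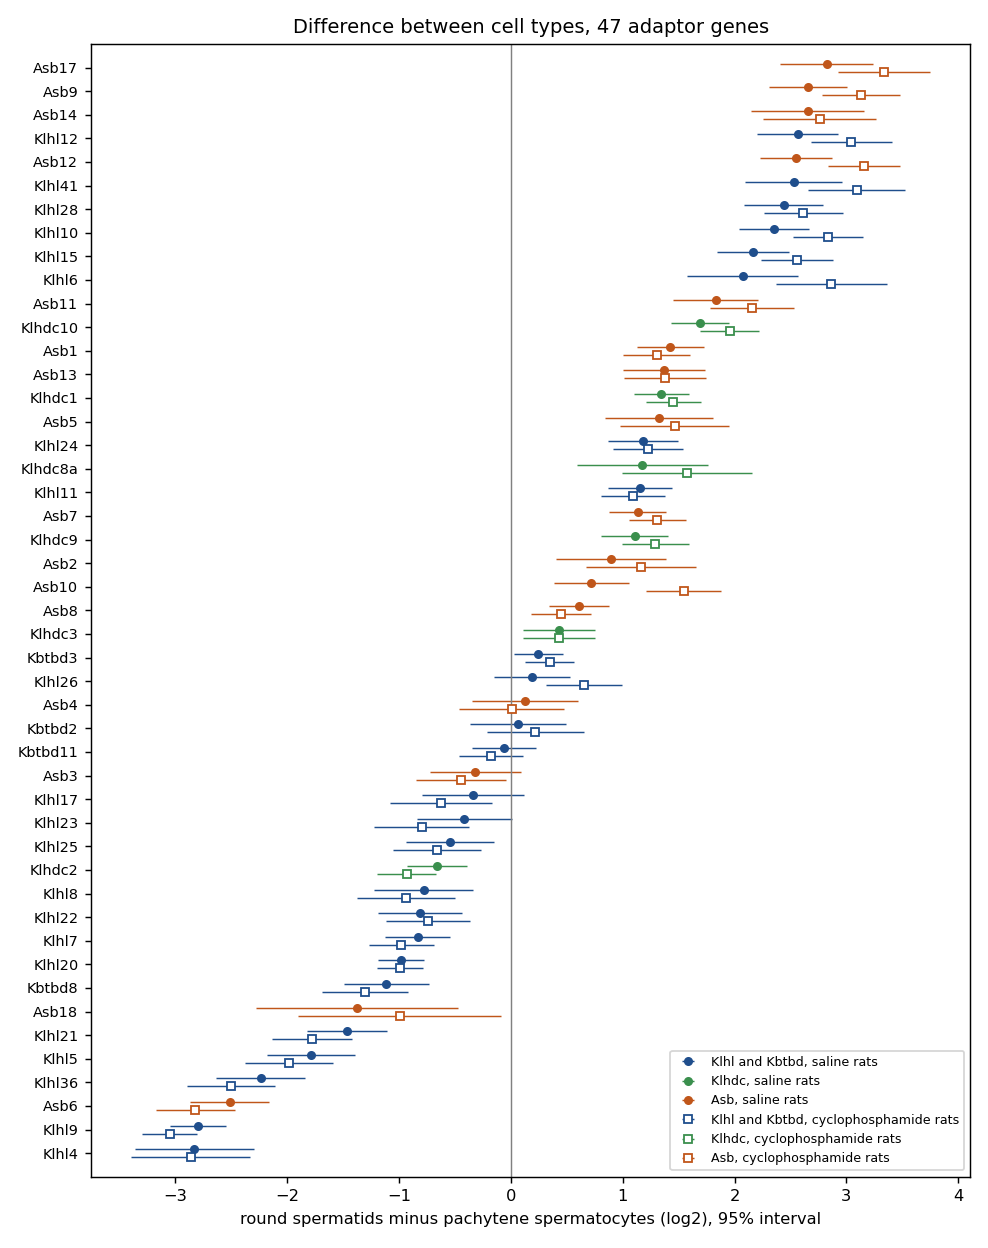
Difference between round spermatids and pachytene spermatocytes (log2, horizontal axis) for each of the 47 members tested in saline rats, with 95% intervals from limma; filled circles are saline rats, open squares cyclophosphamide rats, and colours mark the family. Asb genes crowd the upper end, Klhl genes lie at both ends, and filled and open symbols lie on the same side of 0 for every member whose filled symbol passed the test; one cell type was not well above background for Klhl4 and Klhl6 in both treatments and for Asb10 after cyclophosphamide.

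Klhl10 was higher in round spermatids by 5.10-fold (95% interval 4.11 to 6.33; log2 difference 2.35, limma adjusted p = 6.58e-12). Its level was 1.23, 1.47, 0.93, 0.49 and 1.09 on the 5 saline pachytene arrays. On the 6 saline round spermatid arrays the lowest level was 3.22, the median 3.39 and the highest 3.64. The groups were far apart, and the spread within each was small beside the gap. Klhl11, which follows it on chromosome 10 and for which antibodies are found in men with germ cell tumours, was higher by 2.23-fold (adjusted p = 9.41e-08).

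The other kelch adaptors with large differences toward round spermatids were Klhl12, Klhl41, Klhl28 and Klhl15. Klhl12, which ubiquitinates the COPII coat protein Sec31a, had levels of 1.07, 1.20, 0.56, 0.11 and 0.76 on saline pachytene arrays. In saline round spermatids it had a lowest level of 3.08, a median of 3.34 and a highest of 3.57. All of the round spermatid arrays lay above all of the pachytene arrays, and the difference was 5.91-fold (log2 2.56 ± 0.18 SE; limma adjusted p = 1.6e-11). Its substrate Sec31a differed by 0.12 on the log2 scale and did not pass (adjusted p = 0.334). Klhl28 was higher by 5.42-fold and Klhl24 by 2.27-fold. Klhl15, an X-linked adaptor that targets the DNA end resection factor Rbbp8, was higher by 4.48-fold, while Rbbp8 was lower by 1.82 ± 0.10 (SE) on the log2 scale (limma adjusted p = 6.48e-13). Kbtbd3 was higher by 1.18-fold with overlapping groups. That difference lost its call under 7 other settings and when any of 6 arrays was left out, with values of 0.20 to 0.25. The 6 arrays were those of pachytene rats 13, 25 and 28 and round spermatid rats 15, 28 and 29.

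Klhl41 and several Asb genes are known from striated muscle. Klhl41, which stabilises sarcomere proteins, was higher in round spermatids by 5.77-fold (limma adjusted p = 2.49e-10). Asb5 and Asb2, the latter an adaptor for filamins, were higher by 2.51-fold and 1.86-fold, the latter with overlapping groups. On saline pachytene arrays Klhl41 had levels of -3.00, -2.44, -3.45, -3.28 and -3.10, and in saline round spermatids its lowest level was -1.20, the median -0.44 and the highest -0.08. The pachytene arrays thus lay below every round spermatid array. Of 6 striated muscle markers tested, 4 were higher in round spermatids, among them Acta1 and Actn2, and myoglobin Mb did not pass (log2 difference 0.04). Tnnt3 was above background on no array, and Ckm was above it on 0 of 5 saline pachytene and 4 of 6 saline round spermatid arrays. The log2 of the summed muscle marker signal ran from -1.01 to -0.08 on saline pachytene arrays and from -0.43 to 0.91 on saline round spermatid arrays, which overlap. The highest value was that of round spermatid rat 16, where Klhl41 was at its highest level too. That array was not high in muscle markers alone. It also had the highest Sertoli, Leydig, macrophage and leukocyte, myoid, endothelial and red blood cell marker sums of the saline round spermatid arrays. The part of the muscle markers in the Klhl41, Asb5 and Asb2 differences was not tested.

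Klhl6, an adaptor known from B cell receptor signalling, exceeded background on 6 of 6 round spermatid arrays of saline rats and on 0 of 5 of their pachytene arrays. It was at least 3.23-fold higher in round spermatids (limma adjusted p = 5.65e-08), a bound that sets the round spermatid mean against the lowest signal well above background. The macrophage and leukocyte markers moved the same way, with a summed log2 signal of 0.36 to 0.80 on saline pachytene and 2.63 to 3.83 on saline round spermatid arrays. Among them Cd74 and Lyz2 were higher by 2.99 and 3.03 on the log2 scale, and the leukocyte antigen Ptprc was well above background on 0 of 5 pachytene and 4 of 6 round spermatid arrays. On saline round spermatid rat 16, where the leukocyte sum was highest along with the sums named above, Klhl6 had its lowest level of the group (-5.17, the other arrays -4.78 to -4.24). On cyclophosphamide round spermatid rat 26, where that group's leukocyte sum was highest (3.56), Klhl6 was at -4.39 in a group of -4.99 to -4.33. The part of these markers in the Klhl6 difference was not tested, and single arrays do not decide it.

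Among the kelch adaptors lower in round spermatids Klhl9 had the smallest adjusted p. Klhl9, which acts with Cul3 on the mitotic kinase Aurora B, was lower by 6.95-fold (95% interval 5.85 to 8.26; log2 -2.80, limma adjusted p = 1.95e-14). Its levels were 0.90, 0.49, 0.91, 0.97 and 0.66 on saline pachytene arrays and between -2.32 and -1.64, with a median of -2.06, on saline round spermatid arrays. Every round spermatid array was below every pachytene array by more than 2 log2 units. Aurkb itself was higher in round spermatids by 0.68 ± 0.21 on the log2 scale (adjusted p = 0.00464). Klhl22, an adaptor for the mitotic kinase Plk1, was lower by 1.75-fold with overlapping groups, while Plk1 was higher by 1.18 ± 0.18 on the log2 scale. Klhl20, whose substrates include the autophagy kinase Ulk1, was lower by 1.97-fold, and Ulk1 was lower by 0.86 ± 0.34 on that scale. Klhl36 was lower by 4.71-fold and Klhl5 by 3.45-fold. Kbtbd8, which modifies the ribosome biogenesis proteins Nolc1 and Tcof1, was lower by 2.16-fold, and Nolc1 was lower by 2.17 ± 0.14 on the log2 scale (adjusted p = 8.28e-12). Klhl7, Klhl8 and Klhl25 were lower by 1.78-fold, 1.72-fold and 1.46-fold, Klhl8 and Klhl25 with overlapping groups. Klhl25 lost its call without pachytene rat 26 (log2 -0.41, adjusted p = 0.0519), and the difference of Klhl8 was -0.06 within slide 1, which holds 1 saline pachytene array. On scan day 1 alone Klhl8 lost its call too (log2 -0.55, limma adjusted p = 0.0511). X-linked Klhl4 exceeded background on 4 of 5 saline pachytene and 0 of 6 round spermatid arrays, and was at least 3.19-fold lower in round spermatids (limma adjusted p = 1.11e-09).

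**Figure D2:**
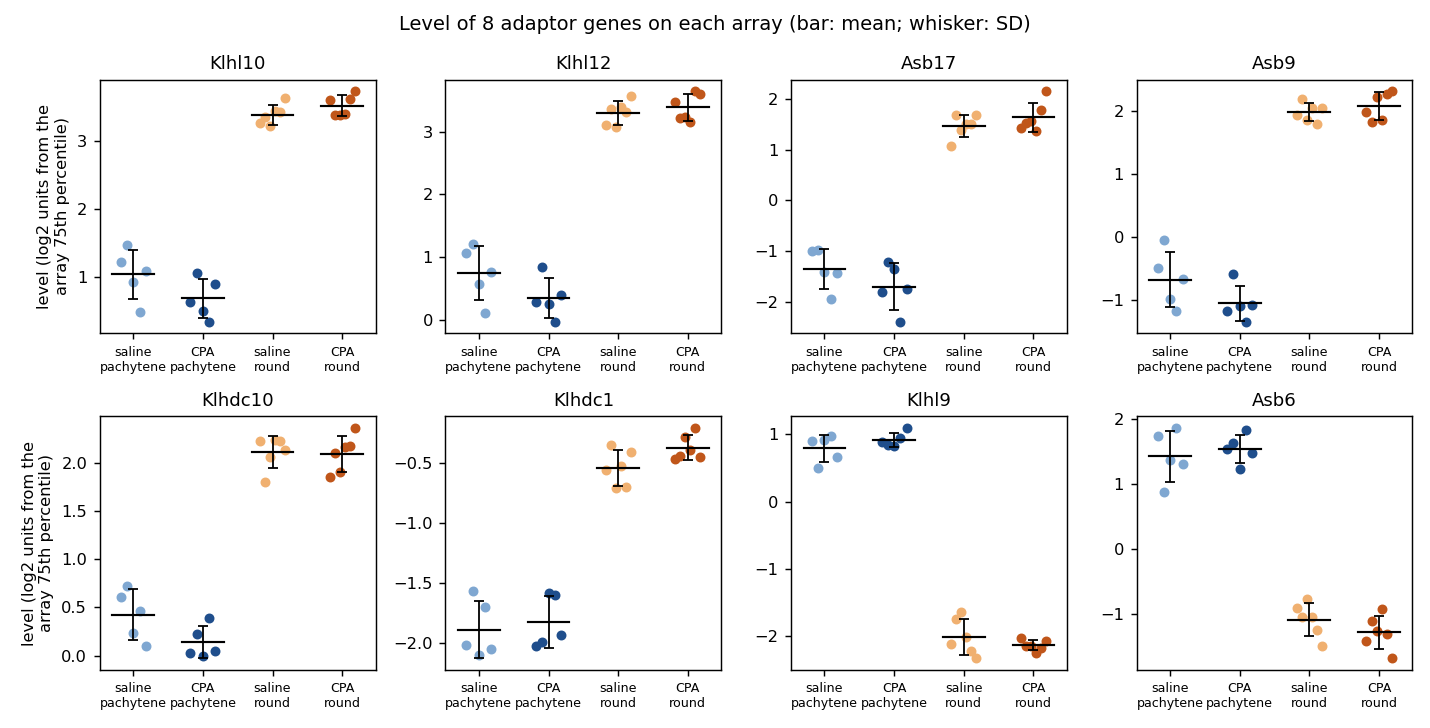
Level of 8 members (log2 units from the 75th percentile of the array, vertical axis) on each array of the 4 groups; points are arrays, bars means and whiskers SD. For each of the 8 genes, 6 higher and 2 lower in round spermatids, no array of one cell type reaches the range of the other in either treatment.

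Klhl21 gave opposite answers with its 2 probes. Klhl21 acts with Cul3 on Aurora B in dividing cells. The probe with the higher mean read -2.02, -2.24, -1.68, -2.35 and -1.88 on saline pachytene arrays and -3.90 to -2.87, with a median of -3.63, on saline round spermatid arrays. That probe was lower in round spermatids by 2.77-fold (log2 -1.47; limma adjusted p = 7.14e-08). The second probe read -3.81, -3.55, -3.88, -3.98 and -3.81 in saline pachytene spermatocytes and -2.83 to -1.51 in saline round spermatids, and was higher there by 3.04-fold (log2 1.61; adjusted p = 3.56e-08). Neither probe's groups overlapped, and both were well above background on all 22 arrays. With the probes averaged the difference was 0.069 and did not pass (adjusted p = 0.685), so no direction is given for the gene. Of the other members with a second probe, both Klhl23 probes missed the threshold in saline rats (log2 -0.42 and -0.21), the second probe of Klhl26 was tested in cyclophosphamide rats alone, and those of Klhl14 and Klhl31 were well above background on 0 arrays.

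**Figure D3:**
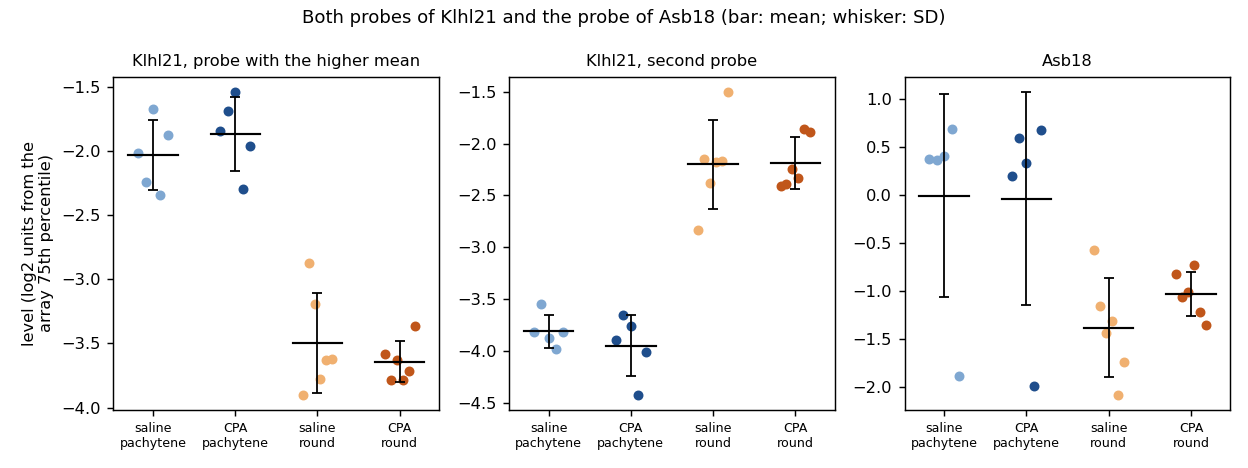
Level (log2 units from the 75th percentile of the array, vertical axis) of both Klhl21 probes and of the Asb18 probe on each array; bars are means and whiskers SD. The Klhl21 probes move in opposite directions between the cell types in both treatments, and 1 saline and 1 cyclophosphamide pachytene array lie apart for Asb18.

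The Klhdc genes were mostly higher in round spermatids. Klhdc10 had levels of 0.61, 0.73, 0.24, 0.46 and 0.10 on saline pachytene arrays. In saline round spermatids its lowest level was 1.81, the median 2.18 and the highest 2.24. The groups did not overlap and the difference was 3.23-fold (log2 1.69 ± 0.13 SE; limma adjusted p = 5.75e-11). Klhdc1, a Cul5 adaptor that reads C-terminal ends, had levels of -2.02, -1.56, -2.10, -1.70 and -2.05 in saline pachytene spermatocytes and a median of -0.54 in saline round spermatids, and was higher by 2.54-fold. Klhdc9 and Klhdc8a were higher by 2.16-fold and 2.26-fold, and Klhdc3, a Cul2 adaptor, by 1.35-fold with overlapping groups. Klhdc3 lost its call without pachytene rat 16 or rat 25 (log2 0.34 and 0.32). Klhdc8a exceeded background on 3 of 5 pachytene arrays after saline. Klhdc2, which recognises C-terminal diglycine for Cul2, went the other way and was lower by 1.58-fold (limma adjusted p = 8.25e-05).

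Asb17 had the largest difference toward round spermatids of all members. It is known as a testis gene of the SOCS-box family. Its levels were -0.997, -0.98, -1.42, -1.95 and -1.43 on saline pachytene arrays. In saline round spermatids the lowest level was 1.08, the median 1.50 and the highest 1.68. The arrays of the 2 cell types lay more than 2 log2 units apart, and the difference was 7.09-fold (95% interval 5.31 to 9.45; limma adjusted p = 2.64e-11). Asb9, an adaptor for creatine kinases, had levels of -0.50, -0.06, -0.99, -1.18 and -0.68 on saline pachytene arrays and a median of 1.99 in saline round spermatids, and was higher by 6.30-fold. Both creatine kinase substrates in the list of partners moved the same way, Ckb by 1.40 ± 0.26 and Ckmt1 by 1.61 ± 0.22 on the log2 scale (limma adjusted p = 4.24e-05 and 7.31e-07). Asb14 was higher by 6.29-fold and Asb12 by 5.84-fold. Asb14 exceeded background on 3 of 5 saline pachytene and 6 of 6 round spermatid arrays. Asb11, Asb1, Asb13 and Asb7 were higher by 3.56-fold, 2.68-fold, 2.58-fold and 2.19-fold. Asb8 was higher by 1.53-fold. Asb10 was higher by 1.65-fold, with signal above background on 3 of 5 saline pachytene arrays. Asb10 lost its call with another background correction (log2 0.14, adjusted p = 0.296).

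Asb6 and Asb18 were the Asb genes that were lower. Asb6 had levels of 1.75, 0.87, 1.37, 1.86 and 1.30 on saline pachytene arrays and -1.49 to -0.76, with a median of -1.05, on saline round spermatid arrays. The groups did not overlap and the difference was 5.71-fold (log2 -2.51; limma adjusted p = 1.36e-11). Asb18 read 0.38, 0.37, 0.41 and 0.69 on 4 saline pachytene arrays and -1.89 on that of rat 28. Its saline round spermatid arrays ran from -2.08 to -0.57, so the groups overlapped through that array. The difference was -1.38 ± 0.44 (SE) on the log2 scale (limma adjusted p = 0.00684), and -1.85 without rat 28 (adjusted p = 0.000131).

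Chromosome X, which is silenced in pachytene spermatocytes as the sex body forms, carried 5 members. Asb9, Asb11, Asb12 and Klhl15 were higher in round spermatids, as given above, and Klhl4 was lower. Of all tested members 55.32% were higher. The share of all X-linked probes called higher or lower was not counted, so these calls are not a result about the chromosome. Asb12 had levels of -3.21, -2.52, -3.38, -3.82 and -3.24 on saline pachytene arrays. In saline round spermatids its lowest level was -0.85, the median -0.70 and the highest -0.39. Asb11 had levels of -5.32, -4.95, -5.65, -5.85 and -5.28 in saline pachytene spermatocytes. Signal exceeded background on 4 of 5 saline pachytene arrays for Asb11 and Klhl4, and on 5 of 5 for Asb9, Asb12 and Klhl15.

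The 7 members that did not pass in saline rats were Klhl23, Klhl17, Klhl26, Kbtbd2, Kbtbd11, Asb3 and Asb4, with log2 differences of -0.42 to 0.19. Their 95% intervals reached at most 1.79-fold. The remaining 8 members were not tested in this comparison. Klhl29, Klhl38, Klhl40, Klhl42 and Klhdc8b exceeded background on 0 of the 22 arrays. Klhl14 did so on 1 saline and 1 cyclophosphamide pachytene array, Asb16 on 1 saline pachytene and 2 cyclophosphamide round spermatid arrays, and Klhl31 on 2 saline and 6 cyclophosphamide round spermatid arrays.

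In cyclophosphamide rats 28 of 48 members were higher in round spermatids and 17 were lower (limma, adjusted p under 0.05), against 38.6% and 40.9% of all probes tested. The groups did not overlap in 39 of the 48, against 67.4% of all probes. These arrays are separate from the saline arrays, but both treatments were fitted together with a shared estimate of spread for each probe. All 26 higher and 14 lower calls of saline rats were called in the same direction, and 0 were called in opposite directions. Calls were common among all probes in both treatments, and the share of all probes that kept their saline call was not counted. It is therefore not known whether the members agreed more often than other probes. Klhl21 is among the lower calls in both by its brighter probe. The additional calls were Klhl26 and Klhl31 among the higher genes, and Klhl23, Klhl17 and Asb3 among the lower genes. Klhl23 was called by its brighter probe, and its second probe did not pass (log2 -0.44, limma adjusted p = 0.0639). Klhl31 was at least 1.97-fold higher in round spermatids (limma adjusted p = 6.45e-07). It counts as additional only because it was too dim to be tested in saline rats. There it exceeded background on 2 of 6 round spermatid and 0 of 5 pachytene arrays. The saline groups did not overlap either, with a bound of at least 1.62-fold higher in round spermatids. Klhl10 was higher by 7.14-fold, Asb17 by 10.1-fold and Asb12 by 8.92-fold in cyclophosphamide rats. Klhl9 was lower by 8.28-fold and Asb6 by 7.07-fold. Asb18 was lower by 1.99-fold (adjusted p = 0.0412), with 0.20, 0.60, 0.34 and 0.68 on 4 cyclophosphamide pachytene arrays and -1.99 on that of rat 16-2012. Without 8 of the 11 arrays in turn its call was lost, with differences of -0.999 to -0.817. The members' other differences between the treatments are given with the drug comparisons.

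The partners of these adaptors did not move as a block. Of 8 cullins and RING subunits tested in saline rats, 3 were higher in round spermatids and 5 were lower. Cul3, the scaffold of the Klhl and Kbtbd ligases, was lower by 2.29 ± 0.20 (SE) on the log2 scale (limma adjusted p = 8.63e-10), while Cul5, the main scaffold of the Asb ligases, was higher by 0.43 ± 0.16 (adjusted p = 0.0186). Rbx1, the RING subunit of Cul3, was lower by 0.42 ± 0.12, and Rnf7, the RING subunit of Cul5, was higher by 0.58 ± 0.11. Cul4b was higher by 2.33 and Cul4a and Cul9 were lower by 2.11 and 2.20. Among 4 bridging subunits Dda1 was higher by 2.08, Eloc (elongin C) was lower by 0.27, and Elob (elongin B) did not pass (0.11). Of 9 neddylation genes, which activate cullins, 4 were higher and 3 lower: Uba3 was lower by 2.86 and Nae1, its partner in the NEDD8 E1 enzyme, by 2.23, and Dcun1d4 and Dcun1d3 were higher by 2.46 and 2.41. Of 14 genes of the COP9 signalosome, Cand exchange factors and Arih ligases 2 were higher and 6 lower, with Arih1 higher by 1.83 and Gps1 lower by 1.15. All of these are log2 differences between saline groups.

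Adaptors outside the name rule gave a more even split. Of 25 other BTB adaptors of Cul3, 8 were higher in round spermatids and 10 lower (median -0.11). Gmcl1, a germ cell BTB protein, was lower by 5.63 ± 0.20 on the log2 scale (limma adjusted p = 1.49e-15), and Zbtb16 and Rhobtb2 were higher by 2.31 and 2.18. Zbtb16 is also on the list of spermatogonium markers, of which 4 of 7 tested were higher in round spermatids and 0 lower. The part of spermatogonia in the Zbtb16 difference was not tested. Of 22 other SOCS-box and BC-box adaptors 8 were higher and 10 lower (median -0.18), where Spsb2 and Spsb1 were higher by 2.29 and 2.25 and Lrr1 was lower by 2.98. Of 4 kelch proteins without a BTB domain 2 were higher and 2 lower, with Mkln1 lower by 1.58. Of 23 named substrates or partners of the members 8 were higher and 9 lower, with Lnpk higher by 2.05 and the autophagy kinase Pik3c3 lower by 1.75. The Asb median of 1.23 was therefore above the median of each of these lists, which is a description without a test.

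**Figure D4:**
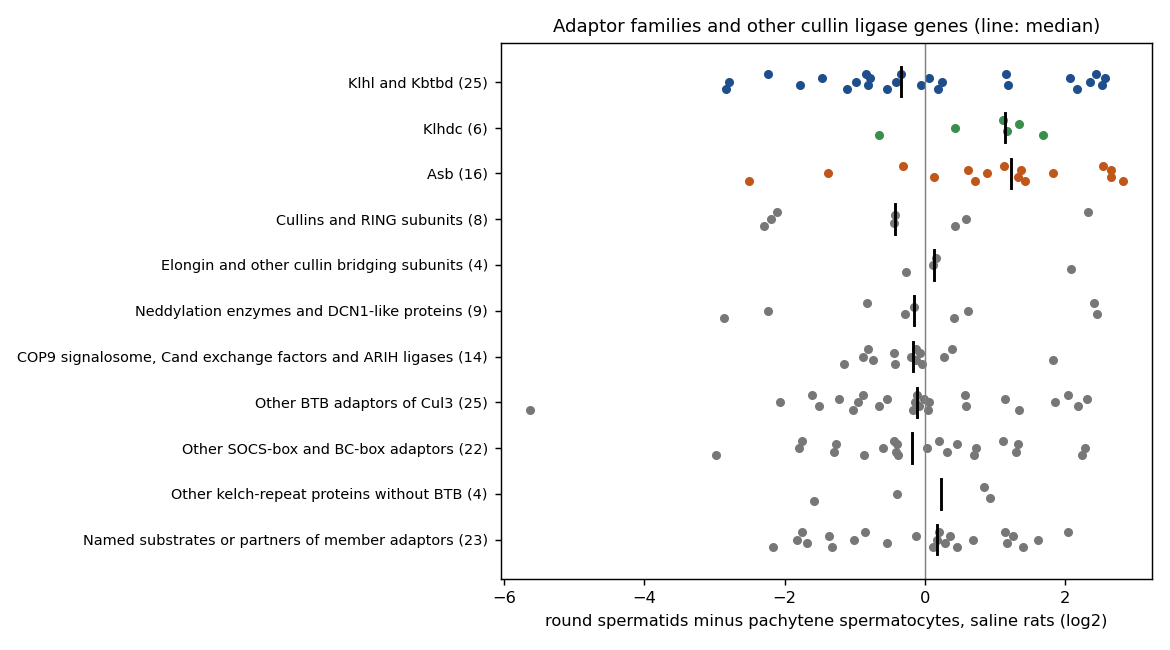
Difference between round spermatids and pachytene spermatocytes of saline rats (log2, horizontal axis) for each tested gene of the 3 adaptor families (coloured) and of 8 lists of other cullin ligase genes (grey); vertical lines are medians and the number tested is in brackets. The Klhdc and Asb medians lie above 1, while the medians of the grey lists lie between -0.43 and 0.23.

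Cyclophosphamide gave no member a change that passed the test. In pachytene spermatocytes 0 of 43 tested members passed, as did 0% of all 20700 probes tested (smallest adjusted p of a member 0.694; limma). At an unadjusted p under 0.05 there were 6 members lower and 0 higher, against 5.28% of all probes lower and 1.88% higher. The 6 were Asb12 (log2 -0.47), Klhl10 (-0.35), Klhdc10 (-0.29), Klhl12 (-0.40), Asb9 (-0.38) and Klhl15 (-0.34), each with a limma adjusted p of 0.694. Klhl10 levels were 0.64, 1.06, 0.50, 0.35 and 0.90 on cyclophosphamide pachytene arrays, beside 0.49 to 1.47 on saline arrays, and the groups overlapped. Asb12 levels were -3.56, -3.47, -3.82, -3.90 and -3.80 beside -3.82 to -2.52, which overlap as well. On the positive side Klhl9 (0.13), Klhl20 (0.10), Klhl21 (0.16) and Asb8 (0.12) had the smallest p.

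All 6 are genes that were higher in round spermatids. Of the 22 members called higher in round spermatids and tested here, 15 were below 0 (median -0.17), and of the 14 called lower 3 were below 0 (median 0.09). Over all probes tested in this comparison 42.6% were below 0 (median 0.036). The share below 0 among all probes called higher in round spermatids was not counted. The 2 comparisons share the saline pachytene arrays. In the same pachytene arrays 14 of 17 round spermatid markers and 9 of 10 late spermatid markers were below 0 after cyclophosphamide, 7 and 2 of them at an unadjusted p under 0.05, and 17 of 18 pachytene markers were above 0. Macrophage markers (9 of 10) and myoid markers (7 of 7) were below 0 too. The summed round spermatid marker signal was 7.72 to 8.07 (mean 7.86) on saline and 7.74 to 7.90 (mean 7.85) on cyclophosphamide pachytene arrays (log2). The summed late spermatid marker signal was 8.77 to 9.71 (mean 9.24) on saline and 8.74 to 9.39 (mean 9.01) on cyclophosphamide pachytene arrays. The part of spermatid RNA in the members' values was not tested. On scan day 1 alone, with 2 pachytene arrays per treatment, the 6 differences were closer to 0. They were -0.34 for Asb12, -0.28 for Klhdc10, -0.20 for Klhl12, -0.105 for Klhl15, -0.099 for Klhl10 and -0.095 for Asb9. Slides 1 and 2 set 1 array against 1 array, with -0.17 and -0.031 for Klhl10.

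**Figure D5:**
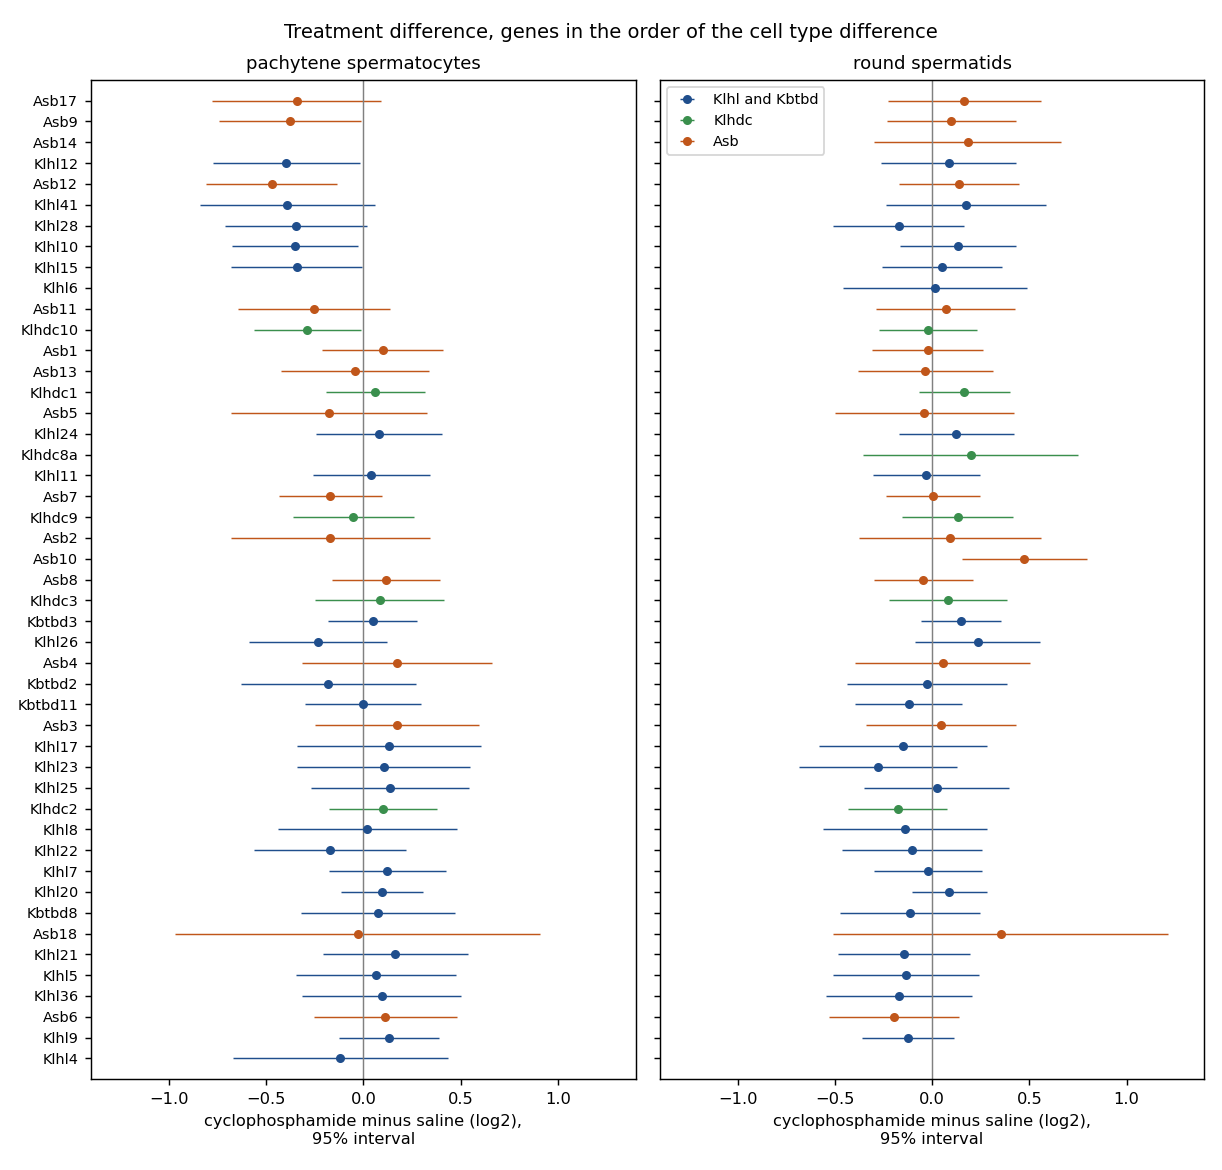
Difference between cyclophosphamide and saline rats (log2, horizontal axis) in pachytene spermatocytes (left) and round spermatids (right), with 95% intervals from limma and colours by family. The members tested between cell types in saline rats are drawn, in the order of that difference, and one without a point was not tested. Klhl31, which was tested in round spermatids (0.57), is not drawn. On the left the genes at the top lie mostly below 0 and all intervals stay within 1 log2 unit of 0, and no gene in either panel passed the test.

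In round spermatids 0 of 47 tested members passed, as did 0% of 21036 probes (smallest adjusted p of a member 1; limma). At an unadjusted p under 0.05 there was 1 member higher, Asb10, and 0 lower, against 2.01% of all probes higher and 1.4% lower. Asb10 levels had a lowest of -5.28, a median of -5.04 and a highest of -4.81 on saline arrays, and -4.84, -4.61 and -4.09 on cyclophosphamide arrays, which overlap slightly. Its difference was 0.47 (95% interval 0.15 to 0.80; limma adjusted p = 1), with 0.59 on slide 1 and 0.36 on slide 2. Klhl31 (0.57), Klhl26 (0.23) and Kbtbd3 (0.15) followed on the positive side, and Klhdc2 (-0.18), Klhl23 (-0.28), Asb6 (-0.20) and Klhl9 (-0.12) on the negative side. Klhl10 differed by 0.13 (95% interval -0.16 to 0.43).

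The difference between the drug effects in the 2 cell types was tested as an interaction, and 0 of 48 members passed, as did 0% of 22029 probes (smallest adjusted p of a member 0.635; limma). At an unadjusted p under 0.05 there were 4 members higher and 0 lower, against 5.12% of all probes higher and 2.54% lower. They were Asb10 (0.82), Asb12 (0.61), Klhl6 (0.79) and Klhl10 (0.49), each with a limma adjusted p of 0.635. The Asb10 value was 0.37 on scan day 1 alone and 0.20 with another background correction. Klhl6 exceeded background on 0 of 10 pachytene arrays, and Asb10 on 3 of 5 saline and 0 of 5 cyclophosphamide pachytene arrays, so both values rest on signal near the floor. On the negative side Klhdc2 (-0.27), Klhl9 (-0.25), Klhl23 (-0.38) and Asb6 (-0.31) had the smallest p.

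The intervals limit how large a drug effect could be. In pachytene spermatocytes the 95% intervals of 43 of 43 tested members stayed within 2-fold, and those of 25 within 1.5-fold. In round spermatids 45 of 47 stayed within 2-fold and 41 within 1.5-fold. Asb18 and Klhl31 were those that did not stay within 2-fold in round spermatids. In simulated data with the spread of these arrays, a 2-fold change was found for 78% of changed probes in pachytene spermatocytes, 72% in round spermatids and 44% for the interaction. A 1.5-fold change was found for 36%, 24% and 2% in the same order. The simulations gave probes independent noise and changed 50 probes at each size from 1.5-fold to 4-fold together. A change in a single gene alone was not simulated.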

How the data were processed

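Per the file headers, the authors' scanner files hold Agilent Feature Extraction processed signals, a background-subtracted intensity per spot that was not scaled between arrays, made with version 10.7.3.1 (11.5.1.1 in the submitters' processing notes). The deposited value table holds log2 values. They matched signals quantile normalized with each probe's median in its cell type subtracted (column medians -0.0096 to 0.0072), so they served only as an alternative for the drug comparisons. The authors' exact steps, scale and centring stay unknown beyond that match.

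Control and outlier spots were left out and spots of a probe averaged, giving 30367 probes on 22 arrays. An accession named 17998 probes through the GRCr8 gene table. Values are log2 of the processed signal minus the 75th percentile of the array. A probe was tested where more than 0.5 of its spots were well above background on all but at most 1 array of a group compared. limma 3.58.1 with statmod 1.5.0 in R 4.3.3 fitted group means to all 22 arrays, with Benjamini-Hochberg adjustment over all probes tested. The steps were tested on simulated data. Tables used Python 3.11.15, numpy 2.4.6, pandas 2.3.3 and matplotlib 3.10.9. Arrays are taken as separate rats, and where they are not, p-values measure a spread that is partly technical. The number of arrays limits the precision.

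Members, gene lists and tests were chosen with earlier results of these data known. Named members were Klhl10, the 8 largest passing differences in each direction, the 4 smallest p in each direction of each drug comparison, X-linked members, those with opposite probes, those never above background, and up to 4 passing genes per pathway list; further members are given by fold so that all are accounted for. Motifs were searched in RefSeq promoters. Equal rat numbers deviated together at -0.08 to 0.37 and were not treated as pairs. Alternatives were another normalization, background correction, filter, probe choice and set of arrays, slide or rat number as a block, and each array left out. Averaging the cyclophosphamide pachytene arrays 16-2011 and 16-2012 was a further alternative.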

Additional observations from a re-analysis of the deposited data

Results flagged for a closer look

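In 105 groups of arrays of the named members, 7 held a single array far from the others. Chance flags about 1 group in 20. Asb18 was low on saline pachytene rat 28 (-1.89, the others 0.37 to 0.69) and on cyclophosphamide pachytene rat 16-2012 (-1.99, the others 0.20 to 0.68). On rat 16-2012 Kbtbd8 was high as well (-0.17, the others -0.64 to -0.56). Asb12 was high on cyclophosphamide round spermatid rat 27 (-0.35, the others -0.63 to -0.55), and Klhl15 on saline round spermatid rat 29 (1.33, the others 0.86 to 0.99). Klhl20 was low on saline round spermatid rat 16 (-2.27, the others -1.98 to -1.89). That array had the highest Sertoli, Leydig, macrophage and leukocyte, myoid, endothelial, striated muscle and red blood cell marker sums of its group. Klhl41 was low on cyclophosphamide round spermatid rat 25 (-0.74, the others -0.37 to -0.16). Causes were not tested.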

How the results depend on the processing

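The counts of members called between the cell types stayed within 1.5 times the reported counts under every alternative run. With each array left out in turn they were 24 to 26 higher and 13 to 16 lower in saline rats, and 27 to 28 and 15 to 17 in cyclophosphamide rats. The drug comparisons and their interaction called 0 members under each alternative run, also in the authors' value table, where it applied. Over all settings and named members, 17 saline and 20 cyclophosphamide cell type values lost their call, 4 saline values gained one, and 1 turned: Klhl21, at 0.069 in saline rats with its probes averaged. Quantile normalization ended the saline call of Klhdc3. Slide 1 alone ended those of Asb5, Klhl7, Klhdc3, Asb10, Klhl22, Asb8, Klhl8 and Kbtbd3, and slide 2 alone those of Asb2, Klhdc2 and Kbtbd3. Slides 1 and 2 each hold 1 saline pachytene array, which is assumed to vary like the other groups. Slide 1 alone gave 21 members higher and 12 lower in saline rats (28.6% and 27.5% of all probes), and slide 2 alone 25 and 13 (31.4% and 29.1%). On the 16 arrays of scan day 1, an alternative chosen after seeing the data, there were 25 and 13.

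With the rat number within a treatment as a random replicate block, 26 members were higher and 14 lower in saline rats, 28 and 17 in cyclophosphamide rats, and 0 passed in each drug comparison. The replicate block of equal numbers within a cell type called 0 members in both drug comparisons, and the replicate block changed no other call. The labels do not say whether same-numbered arrays come from one rat. Their deviations correlated at -0.08 to 0.37, and those of differently numbered arrays at -0.34 to 0.37.

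The mean signal was not among the columns used, so the other background correction started from the median signal. Members dimmer than the background limit have only a bound.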
